A study of Homo sapiens with 11 samples.

Results

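The genes described here are 10 components of WNT signalling, a system in which secreted glycoproteins instruct neighbouring cells. They are the ligands WNT2B, WNT5A, WNT7A and WNT7B, the secreted inhibitors SFRP1 and DKK1, the receptor FZD7, the coreceptor LRP6, and AXIN2 and LEF1, which beta-catenin signalling commonly induces. They were found as the 10 of 57736 gene IDs in the deposited table whose Ensembl ID belonged to those symbols. Of the 10, 8 passed the filter on low counts, as did 13980 genes in all; LEF1 stayed below it and WNT7A had no count in any library. The members were selected with earlier results of these same libraries known, and which comparison guided the selection was not recorded. Their levels are therefore a description, and each adjusted p only says where a gene stood among all genes tested.

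RNA sequencing was done on HEC50B, a human endometrial cancer cell line, in 11 libraries that fell into 4 groups. R183W cells are the parental line, whose PPP2R1A gene (the scaffold of protein phosphatase 2A) carries the R183W substitution, and WT cells are an isogenic derivative that CRISPR editing returned to the wild-type sequence. Cells of each genotype were kept for 4 days with vehicle or with 50 µM WM1119, an inhibitor of the histone acetyltransferase KAT6A. There were 2 R183W WM1119, 3 R183W vehicle, 3 WT WM1119 and 3 WT vehicle libraries. The number of clones behind each line and the nature of the vehicle are not given in the sources used here, so the substitution and any other difference between the lines cannot be told apart. Nothing states that replicates were separate cultures, so the p-values measure only the spread between these libraries, which may be technical.

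In the canonical branch of the pathway, a WNT ligand binds a Frizzled receptor and LRP5 or LRP6, which stops the destruction complex of AXIN, APC and GSK3 from marking beta-catenin for degradation. Beta-catenin then enters the nucleus and binds TCF/LEF factors, whose targets include AXIN2 and DKK1 as negative feedback. SFRP proteins bind WNT ligands outside the cell, DKK1 occupies LRP5 and LRP6, and WNT5A signals mainly through other receptors such as ROR2. In the endometrium the pathway is known for its part in gland development and in the cyclic growth of the lining.

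The promoter windows of WNT2B and DKK1 are shown, because WNT2B was the member called under WM1119 in both genotypes and DKK1 was the member whose window held a TCF/LEF core motif. Sequences are from RefSeq for the GRCh38.p14 assembly, run 5′ to 3′ on the plus strand, and cover 250 bases before to 50 bases after an annotated start. The motif searched was TCAAAG, which reads CTTTGA on the opposite strand; matches are in capitals.
WNT2B, chr1:112466291-112466590: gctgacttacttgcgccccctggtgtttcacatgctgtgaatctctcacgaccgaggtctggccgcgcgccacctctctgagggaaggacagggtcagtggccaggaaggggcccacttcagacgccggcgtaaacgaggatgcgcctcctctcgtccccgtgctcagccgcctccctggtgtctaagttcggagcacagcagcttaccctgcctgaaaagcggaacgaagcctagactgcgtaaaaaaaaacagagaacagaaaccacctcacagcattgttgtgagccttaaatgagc
WNT2B, chr1:112508715-112509014: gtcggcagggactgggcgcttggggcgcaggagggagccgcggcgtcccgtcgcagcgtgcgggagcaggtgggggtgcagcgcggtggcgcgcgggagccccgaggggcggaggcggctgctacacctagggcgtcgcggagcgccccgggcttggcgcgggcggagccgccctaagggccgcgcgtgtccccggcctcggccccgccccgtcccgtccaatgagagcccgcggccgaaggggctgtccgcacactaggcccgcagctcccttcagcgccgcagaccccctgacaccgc
DKK1, chr10:52314031-52314330: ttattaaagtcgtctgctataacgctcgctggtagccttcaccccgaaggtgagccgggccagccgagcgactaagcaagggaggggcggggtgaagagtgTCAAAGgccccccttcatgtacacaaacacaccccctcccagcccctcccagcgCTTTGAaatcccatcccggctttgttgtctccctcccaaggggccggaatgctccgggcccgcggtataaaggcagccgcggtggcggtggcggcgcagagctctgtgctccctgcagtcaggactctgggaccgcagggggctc

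The table used held 7 windows for 5 of the members, namely WNT2B, WNT5A, WNT7A, LEF1 and DKK1. Of these, the DKK1 window held the core, with matches beginning 149 and 95 bases upstream of the start, in opposite orientations. Across all 35116 windows of this length 12.9% held the core and 1.29% held at least 2 copies, beside 1 of the 7 member windows. Over the wider pathway lists described further on, 4 of 86 windows held it (4.65%). A match describes letters in a window, and the counts do not show which WNT2B start was used.

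Library totals ran from 2609922 to 6065149 counts, and levels are given as CPM, counts relative to a common library total after scaling with TMM factors, which correct for differences in composition between libraries. A count of 0 allows up to 0.495 to 1.24 CPM, taking 3 counts as the limit, for counting error only. WT WM1119 library 3 had the smallest total and stood apart: its correlation with its group mates over log2 CPM was 0.917 and 0.937, against 0.957 to 0.975 for the other replicate pairs. KRT8 and KRT18, keratins of simple epithelia, lay at 141 to 251 and 743 to 1570 CPM, and PAX8, a marker of Müllerian epithelium, at 326 to 549 CPM. The epithelial cadherin CDH1 was at most 0.811 CPM, and the endometrial markers SOX17 and PGR were at 0 in all libraries, while the mesenchymal marker VIM reached 381 to 703 CPM. PPP2R1A averaged 30.0 CPM in R183W WM1119, 34.3 in R183W vehicle, 27.8 in WT WM1119 and 23.2 in WT vehicle libraries. Under vehicle it was called 1.48-fold higher in R183W than in WT cells (log2 0.56, SE 0.17, edgeR quasi-likelihood adjusted p = 0.0463). Whether the PPP2R1A call holds under the alternative settings or with a library left out was not examined. Under WM1119 the genotype difference was not called (adjusted p = 0.790). These values show its level and cannot check the substitution. KAT6A averaged 179, 170, 223 and 149 CPM in the same 4 groups, and its activity was not measured.

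Among 4 markers of fibroblasts, PDGFRB was called lower in R183W than in WT cells under both treatments. With WM1119 it was called lower in R183W cells but not in WT cells (edgeR quasi-likelihood adjusted p = 0.00749 and 0.174). LUM, at lower levels, was called in no comparison (adjusted p of 0.0909 or more), while COL1A2 had 4 counts in all and 0 in 10 libraries. Summed over DCN, LUM, COL1A2 and PDGFRB the markers ranged from 0.240 to 0.604 CPM in R183W WM1119, 5.44 to 8.56 in R183W vehicle, 14.5 to 32.5 in WT WM1119 and 33.2 to 57.0 in WT vehicle libraries. In WT libraries most of this was PDGFRB, a receptor of growth factors, at 14 to 30.5 CPM with WM1119 and 29.2 to 52.2 CPM with vehicle. In R183W libraries PDGFRB stood at 0.240 and 0.302 CPM with WM1119 and 3.46 to 7.70 CPM with vehicle, beside 0 and 0.302 CPM, and 0.856 to 2.23 CPM, of LUM. DCN, a defining gene of fibroblasts, was at 0 in all 11 libraries, as were CD3E of T cells and CDH5 of endothelium. The R183W libraries had 1630 CPM (WM1119) and 1650 to 1850 CPM (vehicle) of the 5 summed epithelial markers, against 1170 to 1520 CPM in WT WM1119 and 947 to 1210 CPM in WT vehicle libraries. Most of that sum was KRT18, and KRT8 was also higher in R183W libraries on average. EPCAM ran the other way under vehicle, averaging 38.4 CPM in R183W against 59.7 CPM in WT libraries (log2 -0.64, edgeR quasi-likelihood adjusted p = 0.00936). Under WM1119 EPCAM averaged 80.8 CPM in R183W and 79.6 CPM in WT libraries. The 3 summed mesenchymal markers, VIM, CDH2 and ZEB1, were also higher in R183W libraries. They held 761 to 781 CPM (WM1119) and 871 to 900 CPM (vehicle), against 535 to 602 and 719 to 828 CPM in WT libraries. VIM and ZEB1 were called higher in R183W cells under WM1119 (edgeR quasi-likelihood adjusted p = 0.0409 and 0.00565). Under vehicle neither was called (0.111 and 0.427), and CDH2 was called in neither comparison. The part of these markers in the differences of WNT genes was not tested. In bulk RNA, fewer cells of a type and less RNA per cell cannot be told apart.

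**Figure D1:**
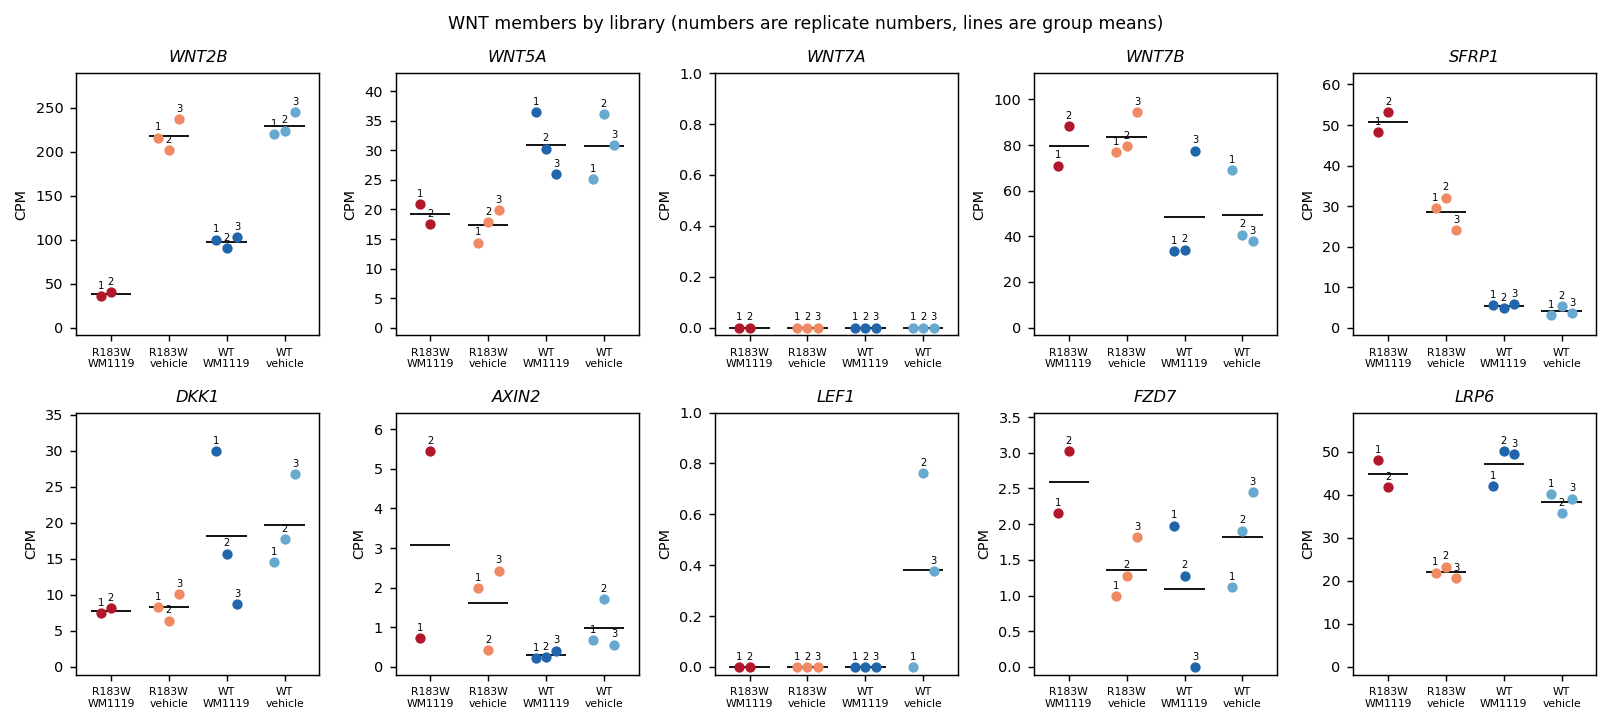
Level of each of the 10 members (vertical axis, TMM-scaled CPM, linear and starting at 0) in each library, grouped along the horizontal axis by genotype and treatment. Each point is a library, labelled with its replicate number, and the line is the group mean. WNT2B is lowest in R183W WM1119 libraries (36.0 and 40.2 CPM), SFRP1 is high in both R183W groups, and WNT7A lies at 0 throughout.

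WNT2B (ENSG00000134245), a canonical ligand, fell under WM1119 in both genotypes, and it fell further in R183W cells. It stood at 36.0 and 40.2 CPM in R183W WM1119 libraries, against 216, 202 and 237 CPM in R183W vehicle libraries. In WT WM1119 libraries it stood at 100, 90.4 and 103 CPM, against 220, 224 and 245 CPM in WT vehicle libraries. Neither pair of groups overlapped, and every R183W WM1119 library was below every WT WM1119 library.

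As a fold, WNT2B was 5.74-fold lower with WM1119 in R183W cells (log2 -2.52, SE 0.15; edgeR quasi-likelihood adjusted p = 1.13e-06). In WT cells it was 2.35-fold lower (log2 -1.23, SE 0.12; adjusted p = 8.29e-05). Under WM1119 the level in R183W cells was 2.57-fold lower than in WT cells (log2 -1.36, SE 0.15; adjusted p = 6.77e-05). Under vehicle the genotypes overlapped, with group means of 218 ± 18.1 CPM in R183W and 230 ± 13.6 CPM in WT libraries (SD, n = 3 each), and the adjusted p was 0.728. Each of these 3 called differences stayed past the threshold with any of the 11 libraries left out. The order of levels was thus vehicle in both genotypes, then WT WM1119, then R183W WM1119.

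The interaction, the WM1119 effect in R183W cells minus that in WT cells, was -1.29 on the log2 scale for WNT2B (SE 0.19; adjusted p = 0.0148). Of all genes tested, 0.286% passed in the interaction, with 0.0930% on the higher side and 0.193% on the lower side, and of the 8 tested members only WNT2B did. With a library left out the estimate ran from -1.37 to -1.22. It missed the threshold without R183W WM1119 library 1 (adjusted p = 0.136) or 2 (0.103), and without R183W vehicle library 2 (0.0537) or 3 (0.0559). WNT2B lies on the opposite strand to ST7L, and no source used here states that counting used strand, so reads shared between them cannot be assigned. ST7L ranged from 21.1 to 25.0 CPM in R183W WM1119, 32.6 to 36.6 in R183W vehicle, 21.1 to 30.1 in WT WM1119 and 22.7 to 27.9 in WT vehicle libraries.

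**Figure D2:**
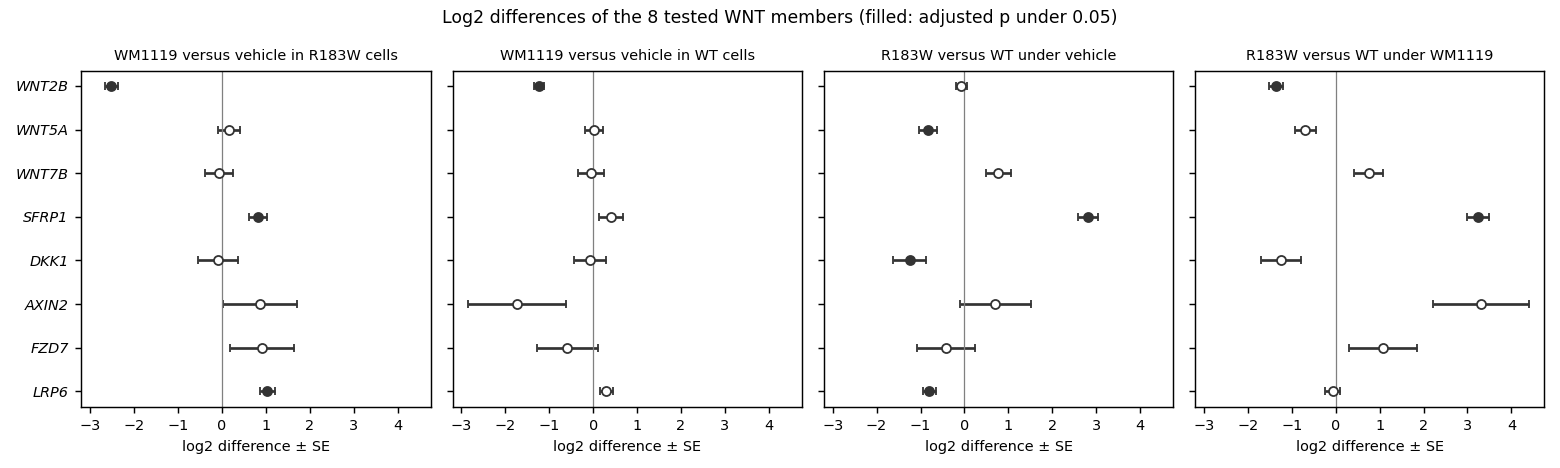
Log2 difference of the 8 tested members (horizontal axis) in 4 comparisons, 1 panel each; bars are ± 1 SE of the edgeR fit and filled points have an adjusted p under 0.05. WNT2B is filled left of 0 in both WM1119 panels, SFRP1 is filled right of 0 in both genotype panels, and the AXIN2 points have the widest bars.

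WNT5A (ENSG00000114251), the ligand known for non-canonical signalling, was lower in R183W than in WT cells under vehicle and showed no detectable response to WM1119. It stood at 20.9 and 17.5 CPM in R183W WM1119, and at 14.4, 17.8 and 19.9 CPM in R183W vehicle libraries. The WT cells had 36.5, 30.3 and 26.0 CPM under WM1119 and 25.2, 36.2 and 30.9 CPM under vehicle. Every R183W library lay below every WT library, while treated and vehicle libraries of the same genotype overlapped.

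Under vehicle WNT5A was 1.78-fold lower in R183W than in WT cells (log2 -0.83, SE 0.20; adjusted p = 0.0161), a call lost without R183W vehicle library 1 (adjusted p = 0.101) or 2 (0.0536) and without WT vehicle library 2 (0.10) or 3 (0.0503). Under WM1119 the difference was -0.69 (SE 0.24) with an adjusted p of 0.0926, and without WT WM1119 library 3 it was -0.81 with an adjusted p of 0.0238. The WM1119 effects were 0.16 (SE 0.24) in R183W and 0.02 (SE 0.20) in WT cells, with adjusted p of 0.770 and 0.976.

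WNT7B (ENSG00000188064), a ligand made by many epithelia, stood at 71.0 and 88.5 CPM in R183W WM1119 and at 77.1, 79.6 and 94.5 CPM in R183W vehicle libraries. In WT cells it stood at 33.4, 34.2 and 77.6 CPM under WM1119 and at 68.9, 40.8 and 38.0 CPM under vehicle. WT WM1119 library 3 thus lay inside the R183W range, WT vehicle library 1 lay just below it, and the other 4 WT libraries were well below it. Over all tested genes, the deviations of these 2 libraries from their group means correlated at 0.405, the highest of any pair of libraries from different groups; genes are not independent replicates.

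Under vehicle all R183W libraries were above all WT libraries, yet the difference of 0.77 (SE 0.29) was not called (adjusted p = 0.102). Under WM1119 it was 0.75 (SE 0.33; adjusted p = 0.184). Without WT WM1119 library 3 the difference was called in both, at 0.78 under vehicle (adjusted p = 0.0058) and 1.22 under WM1119 (0.00194). Under vehicle it was also called without WT vehicle library 1 (1.09; adjusted p = 0.0293). Whether what sets these libraries apart affects WNT7B was not tested. WNT7A (ENSG00000154764), a ligand of the healthy endometrial epithelium, had 0 counts in all 11 libraries and so no more than the 0.495 to 1.24 CPM that a count of 0 allows.

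SFRP1 (ENSG00000104332), a decoy that binds WNT proteins, had the largest called difference between genotypes among the members. It stood at 48.2 and 53.2 CPM in R183W WM1119 libraries, against 5.49, 4.88 and 5.78 CPM in WT WM1119 libraries. Under vehicle it stood at 29.5, 32.1 and 24.1 CPM in R183W libraries, against 3.12, 5.34 and 3.58 CPM in WT libraries. Every R183W library lay above every WT library.

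Relative to WT cells, SFRP1 was 9.42-fold higher in R183W cells under WM1119 (log2 3.24, SE 0.25; adjusted p = 4e-06) and 7.04-fold higher under vehicle (log2 2.82, SE 0.23; adjusted p = 3.33e-06). Both differences were called with any library left out. With WM1119 in R183W cells it was 1.77-fold higher than with vehicle (log2 0.82, SE 0.21; adjusted p = 0.0439), and the treated and vehicle libraries did not overlap.

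That WM1119 call was marginal: 7 of the 11 libraries ended it when left out, with adjusted p from 0.0511 to 0.309. These were both R183W WM1119 libraries (0.199 and 0.309), R183W vehicle libraries 1, 2 and 3 (0.110, 0.0930 and 0.175), WT WM1119 library 2 (0.0668) and WT vehicle library 3 (0.0511). In WT cells the WM1119 effect on SFRP1 was 0.40 (SE 0.27; adjusted p = 0.418) and the groups overlapped, and the interaction of 0.42 (SE 0.35) had an adjusted p of 0.780. The SFRP1 order was R183W WM1119, R183W vehicle, then both WT groups, which overlapped.

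DKK1 (ENSG00000107984), an inhibitor of the LRP coreceptors and a feedback target, was lower in R183W cells under vehicle, where SFRP1 was higher. It stood at 7.44 and 8.15 CPM in R183W WM1119 libraries, against 29.9, 15.7 and 8.67 CPM in WT WM1119 libraries. Under vehicle it stood at 8.25, 6.42 and 10.1 CPM in R183W libraries, against 14.5, 17.7 and 26.7 CPM in WT libraries. The genotypes did not overlap within either treatment, although WT WM1119 library 3 came within the R183W vehicle range.

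Under vehicle DKK1 was 2.37-fold lower in R183W cells (log2 -1.25, SE 0.37; adjusted p = 0.0404). The call rested on most libraries, since it was kept with only 3 of the 11 left out in turn. Without an R183W WM1119 library the adjusted p was 0.0603 or 0.0624, and without R183W vehicle libraries 1, 2 and 3 it was 0.140, 0.145 and 0.0692. Without WT WM1119 library 2 it was 0.0592, and without WT vehicle libraries 2 and 3 it was 0.0906 and 0.178.

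Under WM1119 the DKK1 difference was also -1.25 (SE 0.45) but was not called (adjusted p = 0.104); without WT WM1119 library 3 it was -1.57 with an adjusted p of 0.00636. WM1119 effects on DKK1 were -0.09 (SE 0.45) in R183W and -0.08 (SE 0.36) in WT cells, with adjusted p of 0.936 and 0.917. No binding was measured at its promoter window, so the core matches there stay a description of its letters.

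LRP6 (ENSG00000070018), the coreceptor that DKK1 occupies, was lowest in R183W vehicle libraries. It stood at 48.0 and 41.7 CPM in R183W WM1119 libraries, against 21.9, 23.3 and 20.7 CPM in R183W vehicle libraries. In WT cells it stood at 42.0, 50.1 and 49.5 CPM under WM1119, against 40.2, 35.8 and 39.1 CPM under vehicle. All R183W vehicle libraries were below all others, and the treated libraries of the genotypes overlapped.

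With WM1119 in R183W cells LRP6 was 2.04-fold higher (log2 1.03, SE 0.17; adjusted p = 0.00375), a call lost without R183W WM1119 library 1 (0.90; adjusted p = 0.0806). Under vehicle it was 1.74-fold lower in R183W than in WT cells (log2 -0.80, SE 0.15; adjusted p = 0.00353), which was called with any library left out. Under WM1119 the genotype difference was -0.07 (SE 0.17; adjusted p = 0.849). In WT cells the WM1119 effect was 0.30 (SE 0.15; adjusted p = 0.280), and the interaction of 0.73 (SE 0.23) was not called (adjusted p = 0.266), so a difference between the genotypes in the LRP6 response was not established.

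FZD7 (ENSG00000155760), a Frizzled receptor, was near the limit of detection. It had 9 and 10 counts in R183W WM1119, 6, 6 and 9 in R183W vehicle, 9, 5 and 0 in WT WM1119, and 5, 10 and 13 in WT vehicle libraries. No comparison was called, and the adjusted p ran from 0.437 for R183W against WT under WM1119 to 0.717 for the same under vehicle, with 0.710 for the interaction.

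AXIN2 (ENSG00000168646), a scaffold of the destruction complex and a common reporter of beta-catenin signalling, was also scarce. The related AXIN1 was not, with group means of 57.2 to 95.4 CPM. AXIN2 had 3 and 18 counts in R183W WM1119, 12, 2 and 12 in R183W vehicle, 1, 1 and 1 in WT WM1119, and 3, 9 and 3 in WT vehicle libraries. Replicates of the same R183W group differed widely, and no comparison was called. The lowest adjusted p, 0.0807, belonged to R183W against WT under WM1119, where the WT libraries held 1 count each; without the filter on low counts that difference was called (adjusted p = 0.0327). LEF1 (ENSG00000138795), a TCF/LEF factor that is itself a target, had 4 and 2 counts in WT vehicle libraries 2 and 3 and 0 in the other 9 libraries. LEF1 was not tested.

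Counted over the members, 3 of the 8 tested were called for WM1119 in R183W cells, beside 4.64% of all genes tested. Of these, LRP6 and SFRP1 were higher, beside 1.99% of all genes, and WNT2B was lower, beside 2.65%. For WM1119 in WT cells 1 member, WNT2B, was called, on the lower side; 4.86% of all genes were called, 2.33% higher and 2.53% lower. For R183W against WT under vehicle 4 were called, beside 13.0% of all genes, namely SFRP1 higher (6.82% of all genes) and LRP6, WNT5A and DKK1 lower (6.17%). Under WM1119 SFRP1 was higher and WNT2B lower, beside 8.56% of all genes, 4.64% higher and 3.92% lower. The members were chosen on results of these libraries, so nothing is read from their counts against these shares, and the 2 WM1119 comparisons share their vehicle groups with the genotype comparison.

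The rest of the pathway was described from 8 lists by role, holding 95 genes of which 62 were tested, 18 had no count and 15 were below the filter. Of the 62, members included, 4 were called higher and 3 lower with WM1119 in R183W cells, and the median log2 difference was -0.03 beside 0.00 for all genes. In WT cells 1 was higher and 4 lower (median -0.08 beside 0.00). For R183W against WT, 4 were higher and 8 lower under vehicle (median 0.01 beside -0.01), and 8 were higher and 5 lower under WM1119 (median 0.00 beside -0.02). In the interaction WNT2B was the single gene called. Of all genes tested, 4.64%, 4.86%, 13.0%, 8.56% and 0.286% were called in these 5 comparisons, in the same order. The lists were chosen with earlier results known and include the members, so nothing is read from their counts against these shares. The list counts moved with single libraries, as given in the closing section.

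Among the 19 ligands 8 were tested and 8 had no count. The median of the tested ligands was -0.64 with WM1119 in R183W cells, -0.02 in WT cells, -0.10 between genotypes under vehicle and -0.92 under WM1119. For all genes tested it was 0.00, 0.00, -0.01 and -0.02. The ligand medians lean on genes with few counts: WNT3 and WNT5B, called in no comparison, held 6 and 8 counts over the 2 R183W WM1119 libraries. Besides WNT2B and WNT5A, WNT6, a canonical ligand, was called in 3 comparisons. WNT6 had 0 counts in both R183W WM1119 libraries, against 33, 15 and 17 counts in WT WM1119 libraries, and so was at least 14.9-fold lower, taking 3 counts over the group as the floor; that call was kept with any library left out (adjusted p = 0.00141). Against the 16, 9 and 6 counts of R183W vehicle libraries it was at least 4.93-fold lower (adjusted p = 0.0230), a call lost without either R183W WM1119 library (0.174 and 0.166) or without R183W vehicle library 1 (0.0568) or 2 (0.0575). Under vehicle it was 3.00-fold lower in R183W than in WT cells (log2 -1.58, SE 0.47; adjusted p = 0.0413), and leaving out any of 5 of the 6 vehicle libraries, all but WT vehicle library 3, ended that call (adjusted p from 0.0631 to 0.193). The secretion factors PORCN and WLS were called in no comparison, with adjusted p of 0.333 or more.

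**Figure D3:**
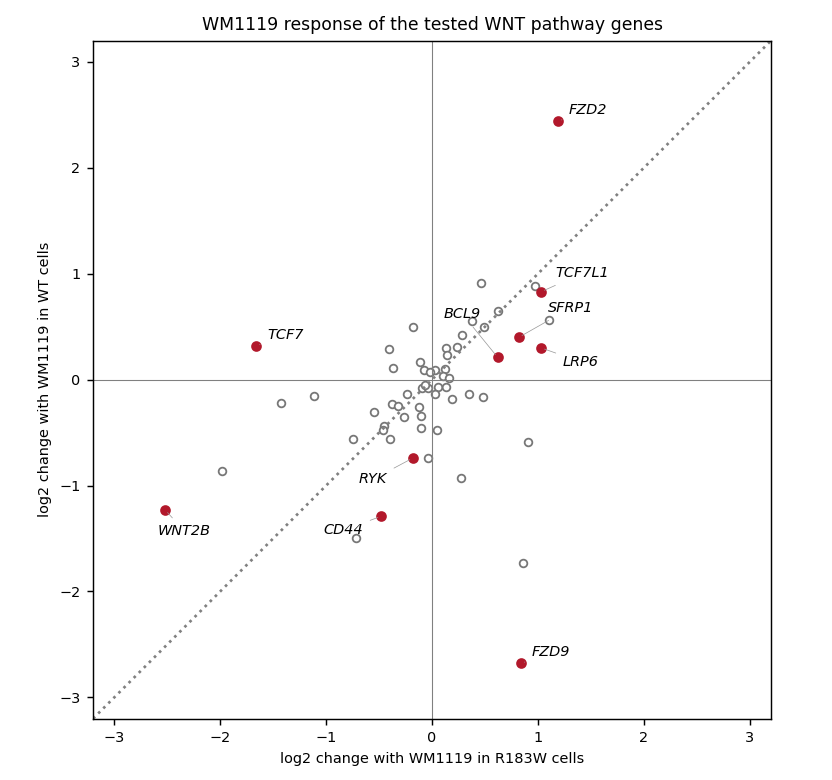
Log2 change with WM1119 in R183W cells (horizontal axis) against that in WT cells (vertical axis) for the tested pathway genes; each point is a gene, red where it was called in either genotype, and the dotted line marks equal changes. Genes with 0 counts in a compared group, WNT6 among them, are left out. WNT2B lies at -2.52 and -1.23, above the dotted line, and FZD9 and TCF7 lie in quadrants of opposite sign.

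Of the 18 receptors and coreceptors 17 were tested. ROR2, a receptor of WNT5A, stood at 29.5 and 33.5 CPM in R183W WM1119 libraries, against 0.659, 3.85 and 3.30 CPM in WT WM1119 libraries. Under vehicle it stood at 26.4, 26.5 and 19.7 CPM in R183W libraries, against 2.23, 1.72 and 1.13 CPM in WT libraries. The genotypes did not overlap, and ROR2 was 12.7-fold higher in R183W cells under WM1119 (log2 3.66, SE 0.42; adjusted p = 0.000101) and 14.3-fold higher under vehicle (log2 3.84, SE 0.40; adjusted p = 3.03e-05), both called with any library left out. FZD6, a Frizzled receptor, was lower in R183W cells under WM1119 (29.3 ± 1.30 CPM, n = 2, against 49.3 ± 8.65, SD, n = 3; adjusted p = 0.0215) and under vehicle (38.8 ± 2.32 against 73.0 ± 7.42 CPM, SD, n = 3 each; adjusted p = 0.00172). The FZD6 call held with any library left out under vehicle, but not under WM1119 without R183W WM1119 library 1 (0.124) or 2 (0.18) or WT WM1119 library 1 (0.0698).

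The other receptor calls were less stable. FZD2 stood at 16.5, 9.25 and 2.89 CPM in WT WM1119 libraries, against 1.78, 1.72 and 1.88 CPM in WT vehicle libraries, which was 5.43-fold higher (adjusted p = 0.0168), a call lost without WT WM1119 library 2 (0.0544) or WT vehicle library 2 (0.0803) or 3 (0.0684). Its log2 change was 2.44 (SE 0.52) with all libraries and 1.80 without WT WM1119 library 1. In R183W cells FZD2 was also higher in every treated library, but the change of 1.19 (SE 0.55) was not called (adjusted p = 0.256). FZD9 had 1, 1 and 2 counts in WT WM1119 libraries, against 10, 18 and 11 in WT vehicle libraries (adjusted p = 0.0403). It had 18 and 13 counts in R183W WM1119 libraries and was called higher there than in WT WM1119 libraries (adjusted p = 0.0100). With WM1119 in WT cells RYK, an atypical WNT receptor, was lower (log2 -0.74, SE 0.17; adjusted p = 0.0265), and under vehicle it was lower in R183W cells (log2 -0.63, SE 0.17; adjusted p = 0.0248). Under vehicle FZD3 was lower in R183W cells (log2 -1.17, SE 0.32; adjusted p = 0.0266), and under WM1119 LRP5 and ROR1 were higher in R183W cells (log2 1.40, SE 0.37, and 0.60, SE 0.16; adjusted p = 0.0310 and 0.0344). With WM1119 in R183W cells the RYK change of -0.18 (SE 0.20) was not called (adjusted p = 0.667). In the interaction FZD2, FZD9 and RYK were not called (adjusted p = 0.676, 0.152 and 0.540).

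These calls depended on single libraries. In WT cells FZD9 was called when R183W vehicle library 1 or WT WM1119 library 3 was left out and missed the threshold with each of the other 9 (adjusted p up to 0.131), and its genotype call was lost without R183W WM1119 library 1 (0.0802) or 2 (0.0558). RYK lost its WM1119 call without WT WM1119 library 2 (0.0682) or WT vehicle library 2 (0.102) or 3 (0.107). Between genotypes RYK missed the threshold once R183W vehicle library 1 (0.131), 2 (0.0511) or 3 (0.0702), or WT vehicle library 2 (0.101) or 3 (0.0946), was left out. FZD3 lost its call without R183W vehicle library 1 (0.0564) or 3 (0.0906), or WT vehicle library 1 (0.0781) or 2 (0.0793). LRP5 lost its call without R183W WM1119 library 1 (0.0652) or 2 (0.281), or WT WM1119 library 1 (0.0773) or 2 (0.0993). ROR1 lost its call without 6 of the 11 libraries, with 0.267 without R183W WM1119 library 1 as the highest adjusted p. RYK between genotypes and ROR1 were named after their values were seen, since they fall outside the rule for named genes.

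**Figure D4:**
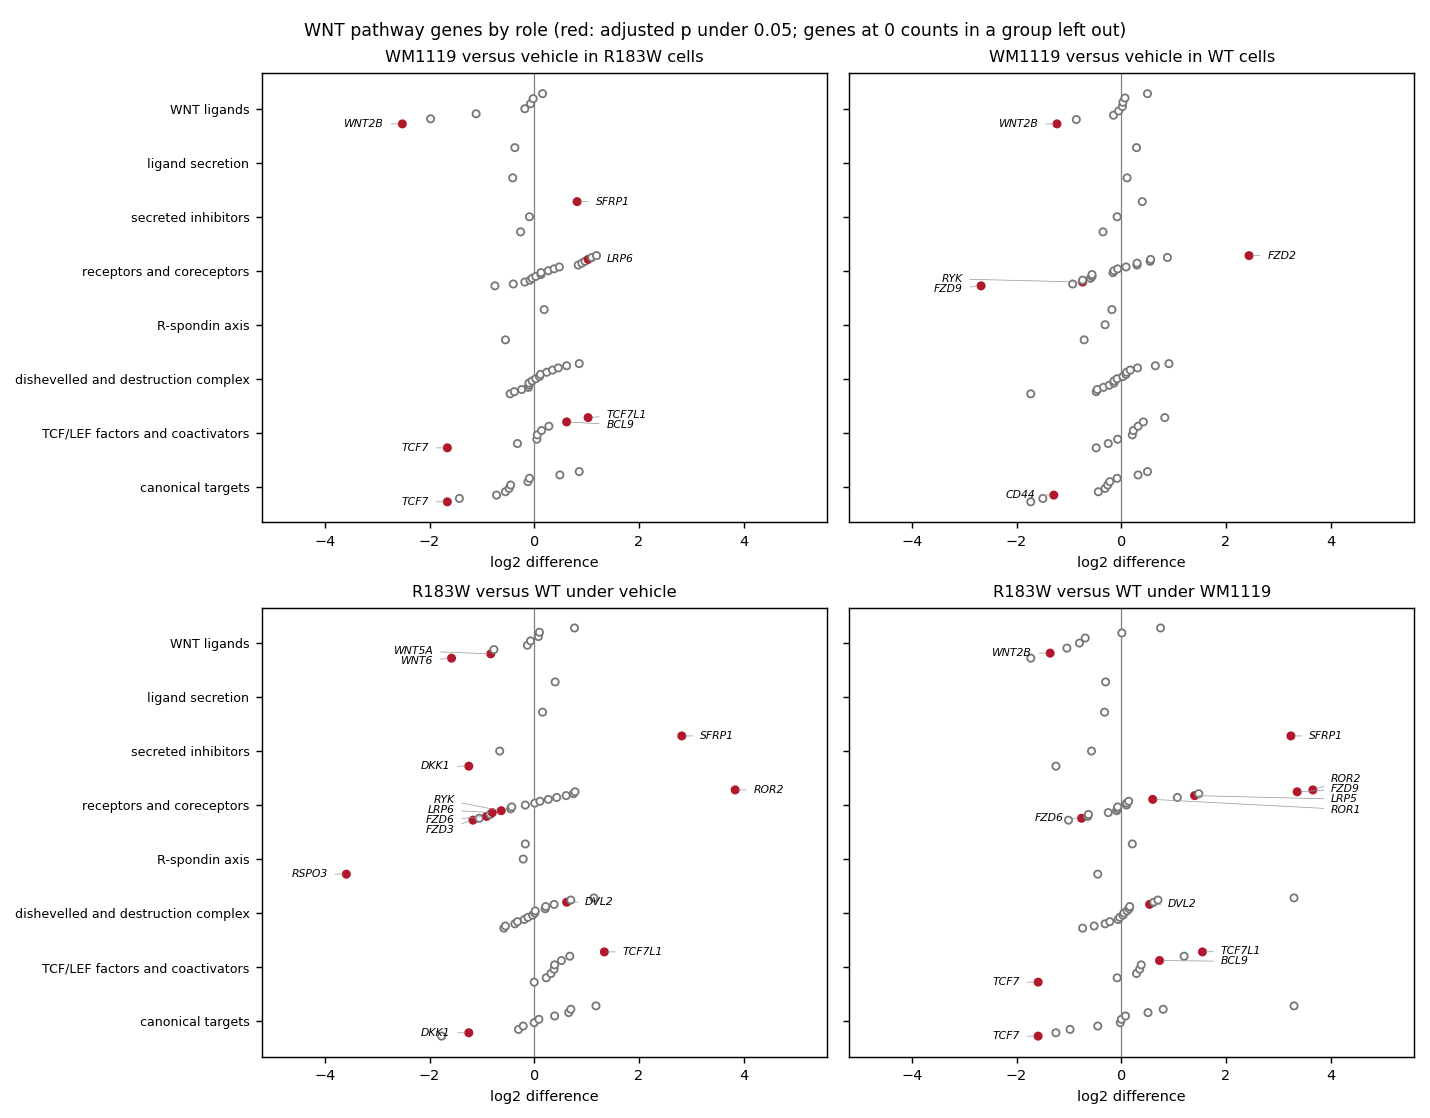
Log2 difference (horizontal axis) of the tested pathway genes in 4 comparisons, arranged down the page by role; each point is a gene, red and labelled where its adjusted p was under 0.05. Genes at 0 counts in a compared group are left out, and a gene in several lists is drawn in each. For receptors, red points lie on both sides of 0 in 3 of the 4 panels, and SFRP1 and ROR2 lie far to the right in both genotype panels.

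In the R-spondin axis, which raises the amount of Frizzled and LRP at the cell surface, 3 of 9 genes were tested. RSPO3, a secreted ligand of that axis, had 0 counts in both R183W WM1119 libraries, against 21, 33 and 19 counts in WT WM1119 libraries, and was at least 16.7-fold lower (adjusted p = 0.00104). Under vehicle it stood at 0.330, 1.71 and 0.811 CPM in R183W libraries, against 12.5, 11.8 and 9.60 CPM in WT libraries, which was 12-fold lower (log2 -3.59, SE 0.49; adjusted p = 0.000381). Both calls were kept with any library left out, although the vehicle difference became -4.29 without R183W vehicle library 2.

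Of the 15 genes for dishevelled proteins and the destruction complex, all were tested, and DVL2 was called, between genotypes. DVL2, an adaptor below the receptors, averaged 123 ± 14.6 CPM in R183W WM1119 (SD, n = 2) against 84.6 ± 3.44 in WT WM1119 libraries (n = 3; adjusted p = 0.0233). Under vehicle it averaged 104 ± 1.93 CPM in R183W against 68.1 ± 3.78 CPM in WT libraries (SD, n = 3 each; adjusted p = 0.00431). The call under vehicle held with any library left out; that under WM1119 was lost without either R183W WM1119 library (0.0734 and 0.262) and without WT WM1119 library 1 (0.0615) or 2 (0.0513). CTNNB1, which encodes beta-catenin, was not called in any comparison, with adjusted p of 0.106 or more.

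Of the 9 TCF/LEF factors and coactivators 8 were tested. TCF7, a factor that is also a target, stood at 6.72 and 9.36 CPM in R183W WM1119 libraries, against 30.2, 22.3 and 23.1 CPM in R183W vehicle libraries and 19.3, 17 and 37.6 CPM in WT WM1119 libraries. It was 3.16-fold lower than in R183W vehicle (log2 -1.66, SE 0.35; adjusted p = 0.0172) and 3.01-fold lower than in WT WM1119 libraries (log2 -1.59, SE 0.36; adjusted p = 0.0138). Both calls were lost without R183W WM1119 library 1 (0.188 and 0.158) or 2 (0.0992 and 0.0638), and the interaction of -1.98 (SE 0.45) was not called (adjusted p = 0.118). TCF7L1, a factor known mainly as a repressor, ran the other way, at 34.8 and 47.1 CPM in R183W WM1119 against 11.2, 11.6 and 20.2 in WT WM1119 libraries, and at 19.6, 18.6 and 21.7 CPM in R183W vehicle against 8.48, 6.29 and 8.84 in WT vehicle libraries.

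TCF7L1 was 2.92-fold higher in R183W cells under WM1119 (log2 1.55, SE 0.27; adjusted p = 0.00273) and 2.54-fold higher under vehicle (log2 1.34, SE 0.25; adjusted p = 0.00344), with the call under WM1119 lost without R183W WM1119 library 2 (0.0509). With WM1119 in R183W cells it was 2.04-fold higher (log2 1.03, SE 0.26; adjusted p = 0.0359), a call lost when any of the 5 R183W libraries was left out (0.0960 to 0.344). In WT cells TCF7L1 was also higher in every treated library, but the change of 0.83 (SE 0.27) was not called (adjusted p = 0.0915). The interaction of 0.20 (SE 0.37) was not called either (adjusted p = 0.928), so a difference between the genotypes in this response was not established. BCL9, a beta-catenin coactivator, was called higher with WM1119 in R183W cells (log2 0.62, SE 0.16, adjusted p = 0.0440). It was also called higher in R183W than in WT cells under WM1119 (log2 0.73, SE 0.16, adjusted p = 0.0127). The BCL9 response was called in 2 of the 11 fits with a library left out (adjusted p up to 0.266), and the genotype call was lost without R183W WM1119 library 1 (0.113) or 2 (0.101).

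**Figure D5:**
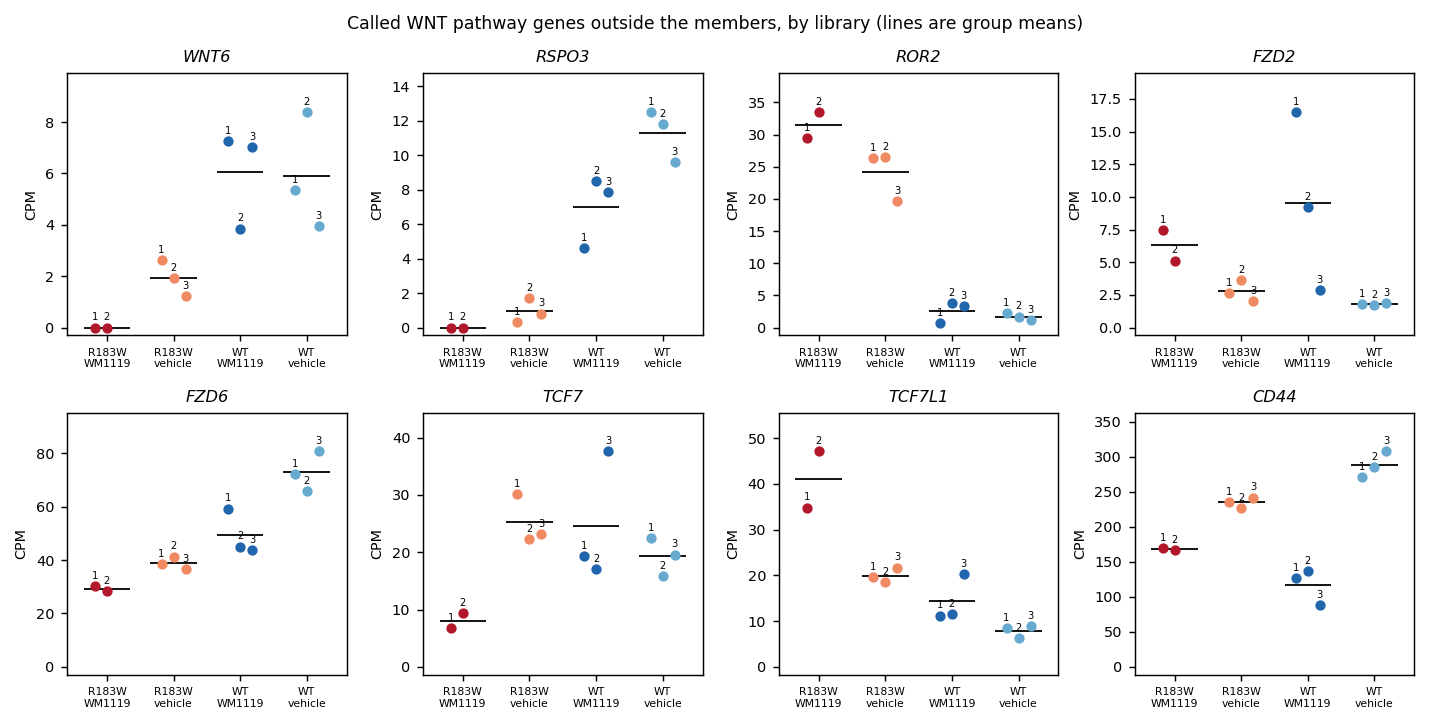
Levels of 8 called pathway genes outside the members (vertical axis, TMM-scaled CPM, linear and starting at 0) in each library, by genotype and treatment; points are libraries labelled with replicate numbers and lines are group means. WNT6 and RSPO3 lie at 0 in both R183W WM1119 libraries, ROR2 is high in all R183W libraries, and CD44 is lower in treated than in vehicle libraries of WT cells.

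Of the 18 listed canonical targets 10 were tested. CD44, a hyaluronan receptor of the cell surface, stood at 127, 137 and 88.4 CPM in WT WM1119 libraries, against 271, 286 and 308 CPM in WT vehicle libraries. It was 2.44-fold lower (log2 -1.29, SE 0.15; adjusted p = 0.000354), and the call held with any library left out. In R183W cells CD44 stood at 170 and 167 CPM with WM1119, against 236, 227 and 242 CPM with vehicle. These groups did not overlap, but the difference of -0.48 (SE 0.17) was not called (adjusted p = 0.121). The interaction of 0.81 (SE 0.22) was not called either (adjusted p = 0.198), so a difference between the genotypes in the CD44 response was not established. Besides CD44, the calls in this list were TCF7 and DKK1, given above, while MYC and CCND1 were called in no comparison, with adjusted p of 0.0713 or more.

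The genes whose levels ran most like those of a member were sought over the 11 libraries among 10500 genes of at least 5 CPM, by the root mean square (RMS) difference of centred log2 CPM. For WNT2B they were DPYSL3 (RMS 0.25), MOXD1 (0.28) and KRT80 (0.33). DPYSL3 averaged 30.7 CPM in R183W WM1119, 135 in R183W vehicle, 77.7 in WT WM1119 and 145 in WT vehicle libraries. For SFRP1 they were MUC5B (0.34), C5 (0.34) and CD74 (0.39). MUC5B, a gel-forming mucin, averaged 50.8, 25.9, 5.39 and 2.70 CPM in the same order of groups. For AXIN2 the nearest were PPARG (0.59), PAQR8 (0.63) and SSPN (0.65), which were further off, and the AXIN2 pattern rests on at most 18 counts per library. Likeness over 11 libraries is a description and carries no test.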

How the data were processed

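Expected counts, which RSEM estimates and which may be fractional, are the unit of the gene table that the authors deposited; per the submitters' processing notes STAR, RSEM and hg19 were used, without versions or annotation. Per the labels' protocols, libraries were made with a ScriptSeq Gold kit, although polyA RNA is the stated molecule. Expected counts share out reads that match several genes, so paralogs and overlapping genes are uncertain. Counts were rounded, scaled with TMM factors and filtered with filterByExpr, which kept 13980 genes holding at least 99.73% of each library's counts. Of 57736 IDs 51959 were matched to a symbol in GENCODE, and unmatched IDs held 1.01% of counts. GENCODE also gave the genes that overlap a member and their strand, on a build other than that of the counts.

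A single fit of 4 group means on all 11 libraries was made in R 4.3.3 (edgeR 4.0.16, limma 3.58.1; two-sided quasi-likelihood tests), without a replicate block, for 5 comparisons. P-values were adjusted by Benjamini-Hochberg over all genes tested, with calls under 0.05. It takes the spread of a gene to be alike in the groups. The biological coefficient of variation was 19.6%. Replicate pairs differed by more than counting error alone gives (a chi-square of 2.66 to 23.4 per degree of freedom, over 10 pairs). The steps were also run on simulated counts, drawn independently for each library and without a library that stands apart. That run does not test the results given here.

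The members and all gene lists were chosen with earlier results of these data known. Named beside the members were called list genes of at least 2 CPM in the higher group, up to 4 per list and comparison by size of change, and 3 genes most like each of the 3 members with the widest range. DESeq2 1.42.0, another scaling, no filter, a replicate block, fits of the compared groups alone, and leaving out each library were the alternatives. Promoters came from RefSeq, whose build differs from that of the counts.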

Additional observations from a re-analysis of the deposited data

Results flagged for a closer look

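The WM1119 effect on WNT2B differed between the genotypes by the interaction test: the effect in R183W cells minus that in WT cells was -1.29 on the log2 scale (SE 0.19; edgeR quasi-likelihood adjusted p = 0.0148), and WNT2B was lower in every treated library of both genotypes than in the vehicle libraries. That call was lost when any of several libraries was left out, as given above, and with a replicate block, as given below. It rests on 2 R183W WM1119 libraries.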

How the results depend on the processing

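WNT2B under WM1119 in both genotypes, SFRP1 between genotypes under both treatments and LRP6 between genotypes under vehicle kept their direction and their call under every alternative run. Over the 5 comparisons in the order of the report (WM1119 in R183W, WM1119 in WT, R183W against WT under vehicle, under WM1119, interaction), counts of all genes called were 649, 680, 1817, 1197 and 40. Without the filter on low counts they were 1110, 1287 and, in the interaction, 191. DESeq2 called 975, 1115 and, in the interaction, 169; the counts not given for these settings were within 1.5 times. With a replicate block they were 261, 287, 1189, 678 and 0 (1023 at an unadjusted p under 0.05 in the interaction). With only the compared groups in the fit they were 2406, 139, 2929 and 319. Leaving out a library gave 118 to 1600, 247 to 1392, 965 to 3151, 386 to 2895 and 0 to 192; the upper ends other than 1392 came without WT WM1119 library 3.

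Of the 62 tested pathway genes, 7, 5, 12, 13 and 1 were called. With the replicate block 3, 3, 8 (under WM1119) and 0 (interaction, 7 at an unadjusted p under 0.05) were called, and with only the compared groups 12, 2, 19 and 6. Without the filter and by DESeq2, 3 were called in the interaction. Leaving out a library gave 1 to 10, 2 to 6, 7 to 21, 5 to 22 and 0 to 2. The lowest counts came without R183W WM1119 library 1 or 2 in the R183W WM1119 comparison (1 and 2) and under WM1119 (6 and 5). In WT cells 2 came without WT WM1119 library 2, WT vehicle library 2 or 3; under vehicle 7 came without R183W vehicle library 1 or WT vehicle library 2, and 21 and 22 came without WT WM1119 library 3. The interaction count was 0 when R183W WM1119 library 1 or 2, or R183W vehicle 2 or 3, was left out (6 to 11 at an unadjusted p under 0.05). R183W vehicle libraries 1, 2 and 3 left out gave 3, 3 and 4 in the R183W WM1119 comparison. Where a group was left with 1 library, it was assumed to vary like the others.

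Signs turned only for differences that were not called. WNT7B became 0.05 with WM1119 in R183W cells and 0.17 in the interaction under the block, and DKK1 became 0.06 in the interaction under the block and 0.01 by DESeq2. With a library left out, WNT7B ran from -0.25 to 0.06 with WM1119 in R183W cells, -0.53 to 0.24 in WT cells and -0.33 to 0.44 in the interaction. DKK1 ran from -0.24 to 0.08, -0.66 to 0.22 and -0.33 to 0.57 in the same 3. AXIN2 ran from -1.16 to 1.70 with WM1119 in R183W cells, WNT5A from -0.12 to 0.14 in WT cells and -0.01 to 0.28 in the interaction, and LRP6 from -0.19 to 0.03 between genotypes under WM1119.

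The block ended the calls of SFRP1 with WM1119 in R183W cells (adjusted p = 0.135), DKK1 under vehicle (0.0809) and the WNT2B interaction (-1.24; 0.0861). Among list genes it ended those of WNT6 (0.0593), TCF7 (0.0607) and BCL9 (0.136) with WM1119 in R183W cells, FZD9 (0.0948) and RYK (0.0673) in WT cells, WNT6 (0.0794) and RYK (0.0523) between genotypes under vehicle, and FZD6 (0.058), ROR1 (0.0969), DVL2 (0.0556), TCF7 (0.0515) and BCL9 (0.0506) under WM1119. Replicate numbers were not used to pair libraries: deviations of same-numbered libraries correlated at -0.391 to 0.137 over 15 pairs, against -0.163 to 0.405 over 30 others. Without the filter the SFRP1 response to WM1119 in R183W cells was lost (0.0552), as were those of BCL9 there (0.0755) and of ROR1 (0.0868) and DVL2 (0.0643) between genotypes under WM1119, while between genotypes WNT7B was called under vehicle (0.000542) and under WM1119 (0.00671), as were DKK1 (0.00599) and AXIN2 (0.0327) under WM1119. WNT7B was also called under vehicle with only the compared groups (0.0123). That setting ended the calls of FZD2 (0.0905) and RYK (0.104) with WM1119 in WT cells, and of FZD6 (0.153), FZD9 (0.0675), LRP5 (0.10), ROR1 (0.193), DVL2 (0.157), TCF7 (0.0932) and BCL9 (0.0949) between genotypes under WM1119. The causes were not tested. Depth limits AXIN2, FZD7 and LEF1.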
